A study of Homo sapiens with 4 samples.

Results

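The genes described here are 10 genes of NOTCH signalling, which were taken by symbol from the deposited count table of 23368 entries. They comprise the ligand JAG1, the receptors NOTCH1, NOTCH2 and NOTCH3, the DNA-binding protein RBPJ, the target genes HES1 and NRARP, and the deltex genes DTX1, DTX3 and DTX4. The study sequenced RNA of 4 established human lines grown from precursor B-cell leukemias (acute lymphoblastic leukemia), at 1 library each. RS4;11 and SEM carry the translocation t(4;11), in which MLL (KMT2A) is rearranged, and are called the MLL-rearranged lines here. NALM6 and REH lack it and served as controls. As background, REH is known to carry an ETV6-RUNX1 fusion and NALM6 a DUX4 rearrangement, so the groups differ by more than t(4;11). Every culture was kept in RPMI medium containing fetal bovine serum, with no other treatment, until sub-confluent. Where a pair of values is given for a group, the first is RS4;11 and the second SEM, or the first is NALM6 and the second REH. Each line is 1 patient's leukemia grown in culture and counted as 1 replicate (n = 2 per group), so every p-value measures the spread between unlike leukemias. A log2 fold change is t(4;11) over no t(4;11).

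NOTCH proteins are surface receptors that are cut when a ligand on a neighbouring cell binds them. The freed intracellular domain enters the nucleus, joins RBPJ and a mastermind coactivator, and switches on target genes such as HES1, NRARP and DTX1. Deltex proteins are RING-type ubiquitin ligases, and some of them bind the intracellular part of NOTCH and act on its traffic and signalling. In lymphoid progenitors NOTCH1 signalling is known to favour the T lineage over the B lineage, and NOTCH2 is known for its role in marginal zone B cells.

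The libraries held between 33620574 counts (SEM) and 84212986 counts (REH). Levels are CPM, a line's counts for a gene scaled by the sum of all gene counts in its library, and a floor of 3 counts corresponds to between 0.0356 CPM (REH) and 0.0892 CPM (SEM). The labelled lineage was checked against 9 B-lineage markers, of which 7 exceeded 1 CPM in all 4 lines and all 9 in at least 1 line. Their summed level was 2140.5 and 1211 CPM in the MLL-rearranged pair and 2529.8 and 2634 CPM in the control pair. VPREB1 in REH (0.226 CPM) and BLNK in SEM (0.178 CPM) were the values under 1 CPM. BLNK had 6.82 CPM in RS4;11, against 89.5 and 259.7 CPM in the control pair. CD79B, IGLL1, CD22 and BLNK lay lower in both MLL-rearranged lines than in either control, and the other B-lineage markers overlapped between groups. The lower pattern was shown by 28.3% of all tested genes. Of 8 T and NK cell markers the defining CD3D, CD3E and CD3G had 0 counts in every line, and the summed level lay between 0.119 and 6.71 CPM. Only CD247 in REH exceeded 1 CPM, at 5.81 CPM. The 6 myeloid markers summed to 15.3 and 49.7 CPM in RS4;11 and SEM and to 15.3 and 45.4 CPM in NALM6 and REH. The highest single values among them were MPO in REH (34.2 CPM) and CSF1R in SEM (33.3 CPM). The 7 stromal and endothelial markers summed to 2.72 and 4.94 CPM in RS4;11 and SEM and to 0.268 and 4.18 CPM in NALM6 and REH, with COL1A2 and DCN at 0 in all lines.

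The comparison of lines with and without t(4;11) gave 1 large difference among the 10 genes, at DTX1, which was almost absent from both t(4;11) lines and abundant in both controls. RBPJ was at a similar level in all 4 lines. NOTCH1, NOTCH2, DTX4 and NRARP varied between lines in orders that crossed the groups. NOTCH3 and JAG1 were each at their highest in a single control line, and HES1 and DTX3 were at or under the floor of 3 counts in every line. The levels are shown line by line in the plot of log2(CPM + 1).

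**Figure D1:**
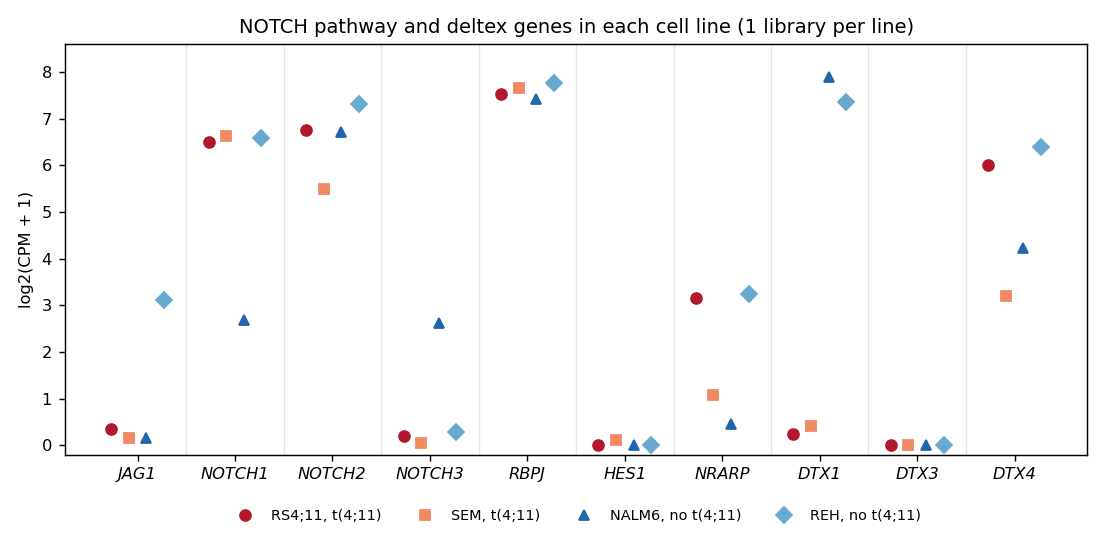
Levels of the 10 genes as log2(CPM + 1) on the vertical axis, with 1 point per cell line and gene. DTX1 lies under 0.5 CPM in the MLL-rearranged pair, against 236 and 162 CPM in the control pair, while RBPJ lies between 171 and 217 CPM in all lines.

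JAG1 encodes Jagged-1, a membrane-bound ligand of NOTCH receptors. It had 0.270 CPM in RS4;11 (14 counts) and 0.119 CPM in SEM (4 counts), against 0.111 CPM in NALM6 (5 counts) and 7.72 CPM in REH (650 counts). REH alone was high, and the t(4;11) lines did not separate from NALM6, whose 95% exact binomial interval of 0.0362 to 0.260 CPM overlapped those of RS4;11 (0.148 to 0.453 CPM) and SEM (0.0324 to 0.305 CPM). Such intervals and floors cover counting error only, since the reads carry no molecular identifiers and may be PCR copies. Between groups its log2 fold change was -4.20 (SE 2.19, edgeR adjusted p = 0.530), which became 0.90 without REH.

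NOTCH1, the receptor best known for activating mutations in T-cell leukemia, stood at 89.1 CPM in RS4;11 and at 98.2 CPM in SEM, with 5.40 CPM in NALM6 and 95.5 CPM in REH. RS4;11, SEM and REH lay close together, and NALM6 stood 17.7-fold under REH. Its log2 fold change was 0.99 (SE 1.36, edgeR adjusted p = 0.802). It was 0.07 without NALM6 and 4.21 without REH. The groups overlapped in CPM, since REH exceeded RS4;11, but they no longer overlapped once levels were scaled by TMM factors or by the authors' size factors.

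NOTCH2 stood at 107 CPM in RS4;11 and at 44.2 CPM in SEM, with 104 CPM in NALM6 and 157 CPM in REH. SEM was the lowest line and REH the highest, and RS4;11 lay just above NALM6, so the groups overlapped. Between groups the log2 fold change was -0.68 (SE 0.54, edgeR adjusted p = 0.659), at -1.47 without RS4;11 and -0.16 without SEM. NOTCH2 has near-identical partial copies, and 4.65% of the 50-base stretches of its longest annotated coding transcript also occur in transcripts of other genes, among them NOTCH2NLA. The entry NOTCH2NL held between 16% (NALM6) and 25.2% (RS4;11) as many counts as NOTCH2 itself. Summing both entries, a choice made after the data were seen, gave a log2 fold change of -0.65 (SE 0.58). How reads were divided between the copies is not given in the sources used here, so the exact level of NOTCH2 is uncertain.

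NOTCH3, a receptor best known from smooth muscle and also a NOTCH target gene, had 0.154 CPM in RS4;11 (8 counts) and 0.0297 CPM in SEM (1 count), against 5.13 CPM in NALM6 (230 counts) and 0.214 CPM in REH (18 counts). Both t(4;11) lines lay under both controls. The level in REH was nevertheless close to that in RS4;11, with intervals of 0.127 to 0.338 CPM in REH and 0.0666 to 0.304 CPM in RS4;11, and NALM6 stood 24.0-fold above REH. The log2 fold change, -4.67 (SE 2.02, edgeR adjusted p = 0.473), was -1.04 without NALM6. NALM6 thus had the lowest NOTCH1 level and the highest NOTCH3 level of the 4 lines.

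RBPJ, the DNA-binding protein through which the intracellular domain of NOTCH reaches its target genes, stood at 183 CPM in RS4;11 and at 200.03 CPM in SEM, with 171 CPM in NALM6 and 217 CPM in REH. The control lines lay on both sides of the t(4;11) lines. Its log2 fold change, 0.08 (SE 0.19, edgeR adjusted p = 0.901), turned sign with the scaling, at -0.02 with column sums alone. RBPJ has processed pseudogenes, and 1.31% of its 50-base stretches recur in transcripts annotated to them. Per length, RBPJ was the most abundant of the 10 genes in the t(4;11) group, at 33.8 FPKM, and the next after DTX1 in the controls, at 32.1 FPKM (fragments scaled by transcript length and depth, the group values of the authors' deposited Cuffdiff table).

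HES1, a repressor of the basic helix-loop-helix family and the most widely used readout of NOTCH activity, had 0 counts in RS4;11 and 3 counts in SEM, against 0 counts in NALM6 and 0 counts in REH. None of these values exceeded the floor of 3 counts, which corresponds to 0.0578 and 0.0892 CPM in the MLL-rearranged pair and to 0.0669 and 0.0356 CPM in the control pair. HES1 counts did not exceed this floor in any line, including the 3 lines with NOTCH1 near 90 CPM or more, and no fold change is given. Some related targets were also low. HES4 had 0 counts in all lines, and HES5 had 1 count in RS4;11 and 0 in the other lines. HEY1 had 10 and 8 counts in RS4;11 and SEM and 1 and 0 counts in NALM6 and REH. Others were counted in some lines. HEY2 had 109 and 14 counts in RS4;11 and SEM and 531 and 21 counts in NALM6 and REH. HEYL had 58 and 0 counts in RS4;11 and SEM and 1 and 67 counts in NALM6 and REH.

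The promoter of HES1 is shown because RBPJ acts on it directly, and that of NRARP because it is another target among these genes and was counted in every line. Both stretches are the 250 bases before the RefSeq start site in GRCh38.p14, read 5′ to 3′ on the gene's own strand, with matches to GTGNGAA on either strand in capitals. This string holds the core letters to which RBPJ binds. HES1 lies at chr3:194135898-194136147 on the plus strand and NRARP at chr9:137302272-137302521 on the minus strand.
HES1: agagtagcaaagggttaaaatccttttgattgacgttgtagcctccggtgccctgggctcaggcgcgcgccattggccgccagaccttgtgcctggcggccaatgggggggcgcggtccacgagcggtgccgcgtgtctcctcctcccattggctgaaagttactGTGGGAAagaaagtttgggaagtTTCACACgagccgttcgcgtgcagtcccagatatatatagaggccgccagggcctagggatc
NRARP: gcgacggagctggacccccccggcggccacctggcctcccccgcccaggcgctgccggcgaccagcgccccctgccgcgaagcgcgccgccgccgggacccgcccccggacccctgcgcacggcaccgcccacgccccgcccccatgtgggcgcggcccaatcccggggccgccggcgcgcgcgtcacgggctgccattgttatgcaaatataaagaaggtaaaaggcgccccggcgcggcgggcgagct
The HES1 stretch held 2 matches on opposite strands, beginning 85 and 62 bases before the start site with 16 bases between them. The NRARP stretch held 0, which says only that these letters are not in this window. Over 35116 promoter stretches of the same length, 11.6% held at least 1 match and 0.906% held 2 or more. Promoters were matched for 8 of the 10 genes, and those of DTX1 and DTX3 are not shown. The stretches of JAG1, NOTCH1, NOTCH2, NOTCH3 and DTX4 held no match, and 1 of the 5 RBPJ start sites had 2.

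NRARP encodes a small ankyrin-repeat protein that is induced by NOTCH and limits the activity of its intracellular domain. It had 7.88 CPM in RS4;11 (409 counts) and 1.10 CPM in SEM (37 counts), against 0.379 CPM in NALM6 (17 counts) and 8.40 CPM in REH (707 counts). RS4;11 and REH were high, SEM and NALM6 were low, and each group held 1 line of either kind. NRARP differed 7.16-fold within the t(4;11) group and 22.1-fold within the controls. Between groups the log2 fold change was 0.14 (SE 1.79, edgeR adjusted p = 0.981), and it turned negative without RS4;11 (-1.90) and without NALM6 (-0.79). SEM had as much NOTCH1 as RS4;11 and 7.16-fold less NRARP, each from 1 library per line.

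DTX1 encodes Deltex-1, a ubiquitin ligase induced by NOTCH signalling and able to bind its intracellular domain. It lies on chromosome 12 (113495662 to 113535833, hg19) and stood at 0.174 CPM in RS4;11 and at 0.327 CPM in SEM, with 236 CPM in NALM6 and 162 CPM in REH. These levels came from 9 and 11 counts in RS4;11 and SEM and from 10606 and 13676 counts in NALM6 and REH. The groups were far apart, and within each the lines differed by less than 2-fold (1.89-fold between SEM and RS4;11 and 1.46-fold between NALM6 and REH). DTX1 averaged 0.250 ± 0.109 CPM over the MLL-rearranged lines and 199 ± 52.4 CPM over the control lines (SD, n = 2 each). The log2 fold change of -9.56 (SE 0.53) stayed between -10.02 and -9.15 when each line was left out in turn.

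This difference ranked 27 from the lowest among 13844 tested genes, and 0.874% of them had an absolute log2 fold change at least as large. Its unadjusted p of 8.84e-05 by edgeR's quasi-likelihood test ranked 12 from the smallest and became 0.102 after Benjamini-Hochberg adjustment over all tested genes, above the threshold of 0.05. The edgeR exact test on the same counts called it lower (adjusted p = 2.35e-29), as did the DESeq2 Wald test (adjusted p = 7.58e-72). The authors' deposited DESeq table called it lower too (adjusted p = 4.95e-27), and 13 genes of that table, DTX1 included, had an adjusted p as small or smaller. The authors' deposited Cuffdiff table listed DTX1 at 0.0805 FPKM with t(4;11) and 60.2 FPKM in the controls and did not call it (p = 0.00295, q = 0.0917).

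DTX4, a close relative of DTX1 with the same type of ligase domain, stood at 63.6 CPM in RS4;11 and at 8.21 CPM in SEM, with 17.7 CPM in NALM6 and 83 CPM in REH. RS4;11 and REH were again the high lines and SEM and NALM6 the low ones, as they were for NRARP. The log2 fold change, -0.38 (SE 1.29, edgeR adjusted p = 0.929), turned positive without SEM (0.46) and without REH (1.12). The deposited locus of DTX4 is the same interval as that of MPEG1, a macrophage gene, so it does not show how far these genes themselves overlap. MPEG1 had 14.2 and 0.476 CPM in the MLL-rearranged pair and 4.41 and 1.09 CPM in the control pair. The TruSeq RNA kit used keeps no record of strand, and reads from any stretch that both genes share cannot be told apart.

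DTX3, the shorter deltex protein, had 0 counts in all 4 lines. The floor of 3 counts is the one given for HES1, and the two-sided 95% exact binomial intervals of 0 counts reach 0.0711 and 0.11 CPM in the MLL-rearranged pair and 0.0822 and 0.0438 CPM in the control pair. The authors' deposited Cuffdiff table also listed DTX3 at 0 in both groups, and its deposited locus overlaps no other. PIP4K2C, a lipid kinase gene 1.4 kb away on 1 side, was likewise listed at 0 in all 4 lines. ARHGEF25, 0.4 kb away on the other side, had 0.0578 and 0 CPM in the MLL-rearranged pair and 0.0892 and 0.0119 CPM in the control pair. Which exons of DTX3 were counted is not given in the sources used here, so these limits apply to counted reads and not to expression.

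The remaining deltex genes differed little between the lines. DTX2 had 17.9 and 14.2 CPM in the MLL-rearranged pair and 17.7 and 16.6 CPM in the control pair (log2 fold change 0.01, SE 0.34). DTX3L, a partner of the ADP-ribosyltransferase PARP9, had 128 and 134 CPM in the MLL-rearranged pair and 136 and 149 CPM in the control pair (log2 fold change -0.02, SE 0.15). In CPM both t(4;11) lines thus lay slightly under both controls for DTX3L, a pattern that 28.3% of all tested genes showed. Per length, DTX3L was the most abundant deltex gene in the t(4;11) group at 23.7 FPKM, ahead of DTX2 at 6.66 FPKM and DTX4 at 6.47 FPKM. In the controls DTX1 came first at 60.2 FPKM, ahead of DTX3L at 24.1 FPKM, DTX4 at 8.43 FPKM and DTX2 at 6.74 FPKM. These FPKM are the authors' group values, with no spread of their own.

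**Figure D2:**
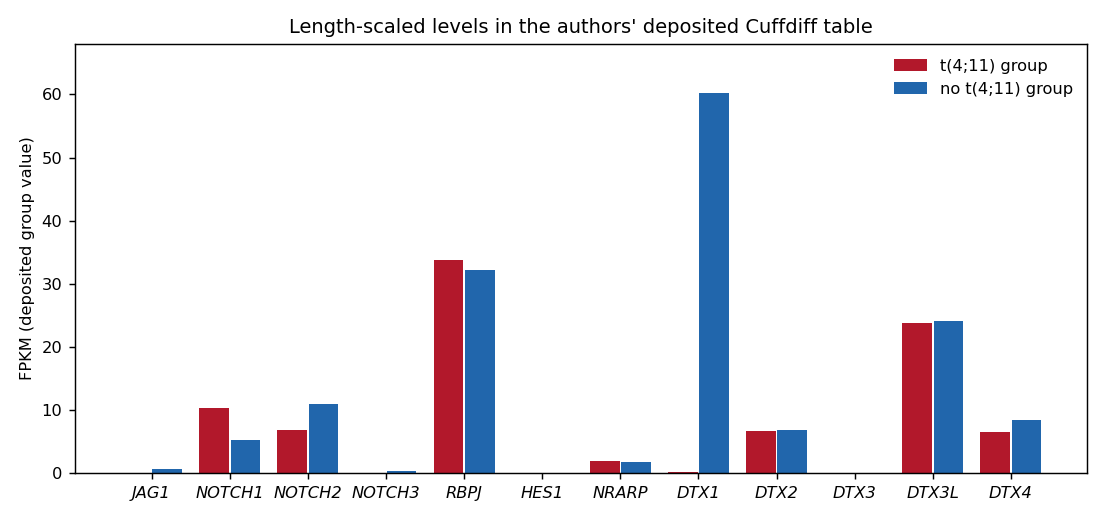
FPKM per group for the 10 genes and for DTX2 and DTX3L, from the authors' deposited Cuffdiff table, with t(4;11) bars to the left of control bars and no error bars because the table gives 1 value per group. DTX1 is the tallest control bar at 60.2 FPKM and is at 0.0805 FPKM with t(4;11).

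Counted together, 8 of the 10 genes passed the filter on low counts, and HES1 and DTX3 did not. With edgeR's quasi-likelihood test 0 of the 8 had an adjusted p under 0.05, against 0.0% of all tested genes. At an unadjusted p under 0.05 DTX1 alone was lower and none was higher, against a background of 12.0% in either direction and 5.87% lower. The edgeR exact test called only DTX1 among these genes, lower, against 3.19% of all genes in either direction and 1.16% lower. DESeq2 likewise called DTX1 alone, lower, against 11.3% in either direction and 5.58% lower. Of 9 genes with an adjusted p in the authors' deposited DESeq table, DTX1 was called lower and none higher, against 1.56% of all genes in either direction, 0.63% lower and 0.934% higher. The authors' deposited Cuffdiff table tested 8 of the genes and called 0, against 2.34% of all genes, 1.11% lower and 1.23% higher. Cuffdiff gave 3 of the 8, DTX1, JAG1 and NOTCH3, a lower level with an unadjusted p under 0.05, against 10.4% of all genes in either direction and 5.6% lower. DTX1 and NOTCH3 were the 2 genes whose t(4;11) lines both lay under both controls, a pattern that 28.3% of all tested genes showed. No gene lay above, against 19.0% of all tested genes. With 2 lines per group, the smallest two-sided p of an exact permutation test would be 0.333. Over the 8 genes the log2 fold changes had a median of -0.53, beside -0.02 over all tested genes.

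**Figure D3:**
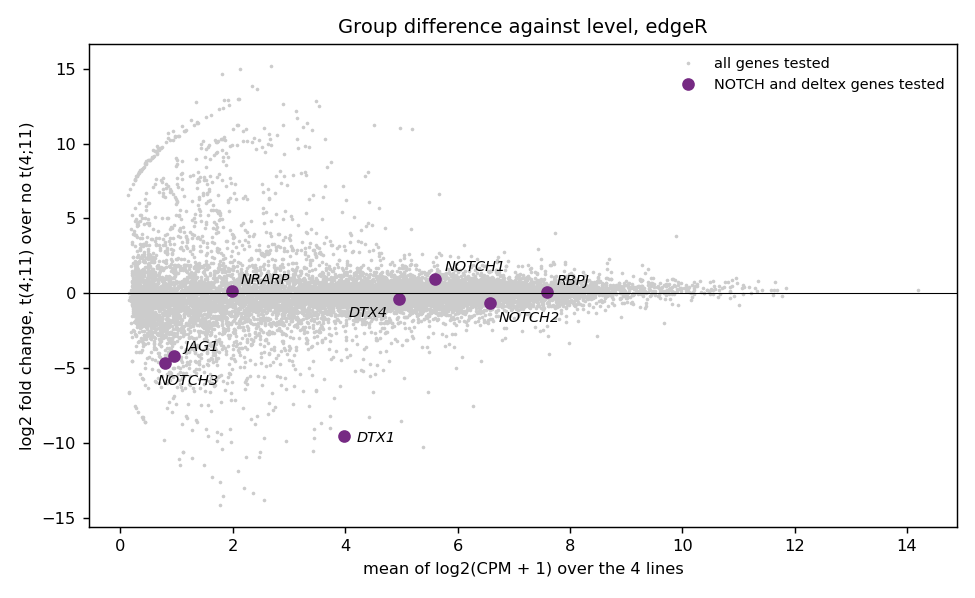
Log2 fold change of t(4;11) over no t(4;11) from edgeR (vertical axis) against the mean of log2(CPM + 1) over the 4 lines (horizontal axis), with all 13844 tested genes in grey and the 8 tested NOTCH and deltex genes in purple. DTX1 sits apart at -9.56, NOTCH3 and JAG1 lie at -4.67 and -4.20 at low levels, and the other 5 lie between -0.68 and 0.99.

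The wider pathway was read from 7 lists holding 61 genes, of which 55 were tested. By edgeR's quasi-likelihood test 0 were called after adjustment over all genes, and an unadjusted p under 0.05 was reached by 4 higher and 4 lower genes, against a background of 6.18% higher and 5.87% lower. The authors' deposited DESeq table called ADAM10 higher and DTX1 lower, and their deposited Cuffdiff table called ADAM10 higher and MIB1 lower. Apart from the 10 genes described above, the 47 tested genes had log2 fold changes with a median of 0.10, with 12 above and 12 below both controls in both t(4;11) lines, beside 19.0% above and 28.3% below over all tested genes.

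All 5 ligands had negative log2 fold changes (median -1.15), as did 7081 of all 13844 tested genes. Only DLL4 was lower in both MLL-rearranged lines than in either control, a pattern that 28.3% of all tested genes showed. DLL4, the ligand known for driving thymic T-cell fate, had 0.694 and 1.73 CPM in the MLL-rearranged pair, against 3.46 and 11.8 CPM in the control pair (log2 fold change -2.56, SE 0.99, edgeR adjusted p = 0.440). The other ligands overlapped between groups. DLL1 had 0.0964 and 8.33 CPM in the MLL-rearranged pair and 1.81 and 9.68 CPM in the control pair. DLL3, a ligand that is known to inhibit rather than activate NOTCH, had 7.96 and 0.0595 CPM in the MLL-rearranged pair and 15.1 and 4.25 CPM in the control pair. REH held the highest level of JAG1, JAG2 (8.03 CPM), DLL1 and DLL4 among the 4 lines. NOTCH4, the remaining receptor, was low, at 2.02 and 1.67 CPM in the MLL-rearranged pair and 1.92 and 0.499 CPM in the control pair.

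Among the 14 enzymes that modify or cut the receptors, ADAM10, the protease that makes the first ligand-induced cut, stood higher with t(4;11). It had 381 and 568 CPM in the MLL-rearranged pair, against 187 and 81.0 CPM in the control pair (log2 fold change 1.93, SE 0.51, edgeR adjusted p = 0.370). The authors' deposited tables called it, with an adjusted p of 0.0214 in DESeq and a q of 0.00418 in Cuffdiff. Of the 14 genes, 4 were higher and 3 lower in both MLL-rearranged lines than in either control, beside 19.0% and 28.3% over all tested genes. The higher ones were ADAM10, FURIN, ADAM17 and NCSTN. The lower ones were the fringe glycosyltransferases, which tune the response of receptors to Delta and Jagged ligands. LFNG had 1.5 and 0.208 CPM in the MLL-rearranged pair, against 8.58 and 16.4 CPM in the control pair (log2 fold change -3.75, SE 1.25, edgeR adjusted p = 0.405). MFNG had 29.7 and 0.0595 CPM in the MLL-rearranged pair, against 139.5 and 61.4 CPM in the control pair (log2 fold change -2.63, SE 2.35, edgeR adjusted p = 0.692), so that SEM had only 2 counts. RFNG had 12.8 and 10.5 CPM in the MLL-rearranged pair, against 20.9 and 21.1 CPM in the control pair. None of the fringe genes was called in either deposited table. The genes for subunits of the gamma-secretase that makes the final cut had log2 fold changes between -0.28 (APH1B, SE 0.50) and 0.65 (PSEN2, SE 1.43). PSEN2 had 2.06 and 0.297 CPM in the MLL-rearranged pair and 1.4 and 0.237 CPM in the control pair, with 1 high and 1 low line in each group. NCSTN was the only subunit gene whose groups did not overlap, at 79.1 and 74.5 CPM in the MLL-rearranged pair, against 74.1 and 59.5 CPM in the control pair (log2 fold change 0.30, SE 0.20).

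Of the 11 genes of the nuclear complex, 5 were higher and 3 lower in both MLL-rearranged lines than in either control (19.0% and 28.3% over all tested genes), with a median log2 fold change of 0.23. The mastermind coactivators, which join RBPJ and the NOTCH intracellular domain, did not move together. MAML2 had 2.60 and 2.56 CPM in the MLL-rearranged pair, against 37.1 and 17.9 CPM in the control pair (log2 fold change -3.31, SE 0.55, edgeR adjusted p = 0.310). It was called lower by the edgeR exact test (adjusted p = 0.0206) and by DESeq2 (adjusted p = 7.25e-07), but in neither deposited table. MAML3 had 49.9 and 41.8 CPM in the MLL-rearranged pair, against 30.2 and 16.1 CPM in the control pair (log2 fold change 1.09, SE 0.40). MAML1 had 105 and 102 CPM in the MLL-rearranged pair, against 85.5 and 84.6 CPM in the control pair (log2 fold change 0.38, SE 0.16). SPEN, a corepressor of RBPJ, had 497 and 433 CPM in the MLL-rearranged pair, against 313 and 244 CPM in the control pair (log2 fold change 0.84, SE 0.21).

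Among 9 genes of ligand endocytosis and receptor turnover, 2 were higher and 3 lower in both MLL-rearranged lines than in either control, near the shares of 19.0% and 28.3% over all tested genes. MIB1, the ubiquitin ligase that activates ligands in the sending cell, had 143 and 118 CPM in the MLL-rearranged pair, against 196 and 738 CPM in the control pair (log2 fold change -1.74, SE 0.72, edgeR adjusted p = 0.463). The authors' deposited Cuffdiff table called it (q = 0.0105) and their deposited DESeq table did not (adjusted p = 1). NUMBL, a relative of the NOTCH antagonist NUMB, had 15.4 and 23.5 CPM in the MLL-rearranged pair, against 5.62 and 8.53 CPM in the control pair (log2 fold change 1.56, SE 0.48). AAK1, a kinase of clathrin adaptors, had 80.5 and 219 CPM in the MLL-rearranged pair, against 52.5 and 48.8 CPM in the control pair (log2 fold change 1.66, SE 0.54).

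Of 15 NOTCH target genes 10 were tested, with a median log2 fold change of -0.82. In 3 targets with wide ranges the groups overlapped. PTCRA, which encodes the pre-T-cell receptor alpha chain, had 2.49 and 0.297 CPM in the MLL-rearranged pair, against 28.8 and 0.0594 CPM in the control pair. HEY2, a repressor related to HES1, had 2.10 and 0.416 CPM in the MLL-rearranged pair, against 11.8 and 0.249 CPM in the control pair. TRIB2, a pseudokinase, had 0.0193 and 202 CPM in the MLL-rearranged pair, against 43.6 and 0.0237 CPM in the control pair. NALM6 was the highest line for PTCRA, HEY2 and MYC (1212 CPM) and the lowest for NRARP, and it had 1 count of HEYL. Of the tested targets, 1 was higher and 3 were lower in both MLL-rearranged lines than in either control, beside 19.0% and 28.3% over all tested genes. IGF1R, a growth factor receptor gene, was the higher one, at 152 and 175 CPM in the MLL-rearranged pair, against 141 and 143 CPM in the control pair (log2 fold change 0.30, SE 0.15). The lower ones were DTX1, NOTCH3 and IL7R, the interleukin-7 receptor gene, which had 155 and 56.8 CPM in the MLL-rearranged pair, against 182 and 247 CPM in the control pair (log2 fold change -0.91, SE 0.58).

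**Figure D4:**
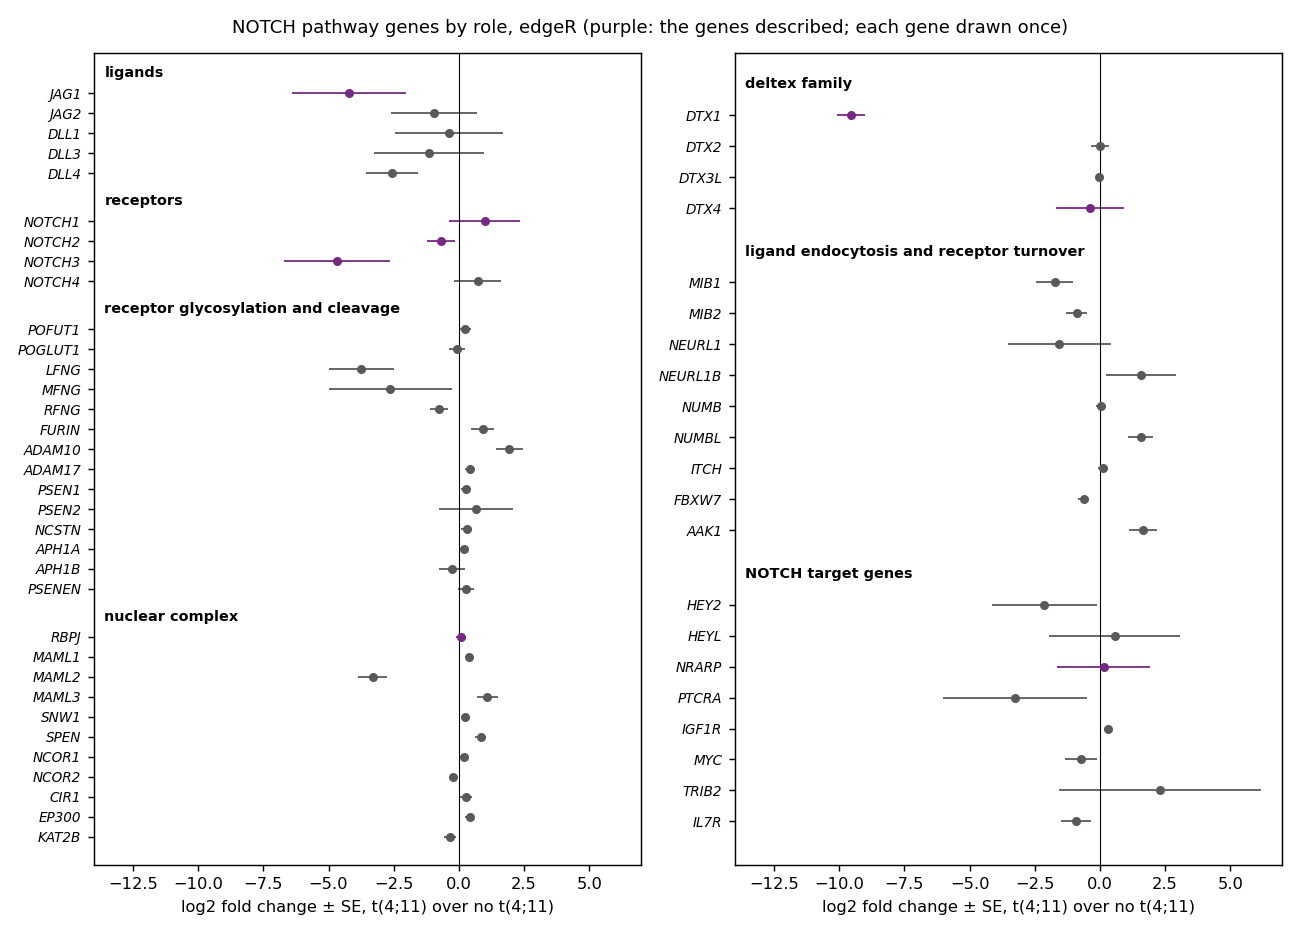
Log2 fold change ± SE of t(4;11) over no t(4;11) from edgeR for the 55 tested pathway genes by role, each drawn once, with the described genes in purple. DTX1 lies at -9.56 with a narrow error bar of 0.53, whereas DTX2, DTX3L and RBPJ lie within 0.08 of 0.

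DTX1 was set beside its neighbours on chromosome 12, where 15 genes lay within 500 kb and 12 of them were tested. RASAL1, a GTPase-activating protein for RAS whose locus begins 0.8 kb from that of DTX1, showed the same pattern of lines. It had 0.559 and 0.0595 CPM in the MLL-rearranged pair, against 83.9 and 35.2 CPM in the control pair (log2 fold change -7.42, SE 1.39, edgeR adjusted p = 0.313). The authors' deposited DESeq table called RASAL1 lower (adjusted p = 0.00174), and their deposited Cuffdiff table did not (q = 0.166). Without strand, reads that run past the end of either gene cannot be assigned with certainty, and their part in these counts was not tested. The next genes were less different. OAS2, on the other side, overlapped between groups with 99.3 and 22.3 CPM in the MLL-rearranged pair and 150.5 and 96.7 CPM in the control pair, and DDX54 overlapped with 165 and 128 CPM in the MLL-rearranged pair and 171 and 109.96 CPM in the control pair. CCDC42B, 51.8 kb away as DDX54 is, lay below both controls in both t(4;11) lines. It had 0.578 and 0.0297 CPM in the MLL-rearranged pair, against 1.87 and 1.13 CPM in the control pair (log2 fold change -2.16, SE 1.48). C12orf52 at 87.7 kb (-0.62, SE 0.36) and IQCD at 97.4 kb (-1.27, SE 0.76) also lay below both controls. TPCN1, an endolysosomal cation channel at 123.4 kb, had 15.3 and 23.0 CPM in the MLL-rearranged pair, against 46.8 and 41.5 CPM in the control pair (log2 fold change -1.10, SE 0.30). Over the 12 neighbours the median log2 fold change was -0.72, with 5 below both controls in both t(4;11) lines (28.3% of all tested genes) and 0 above (19.0% of all tested genes).

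**Figure D5:**
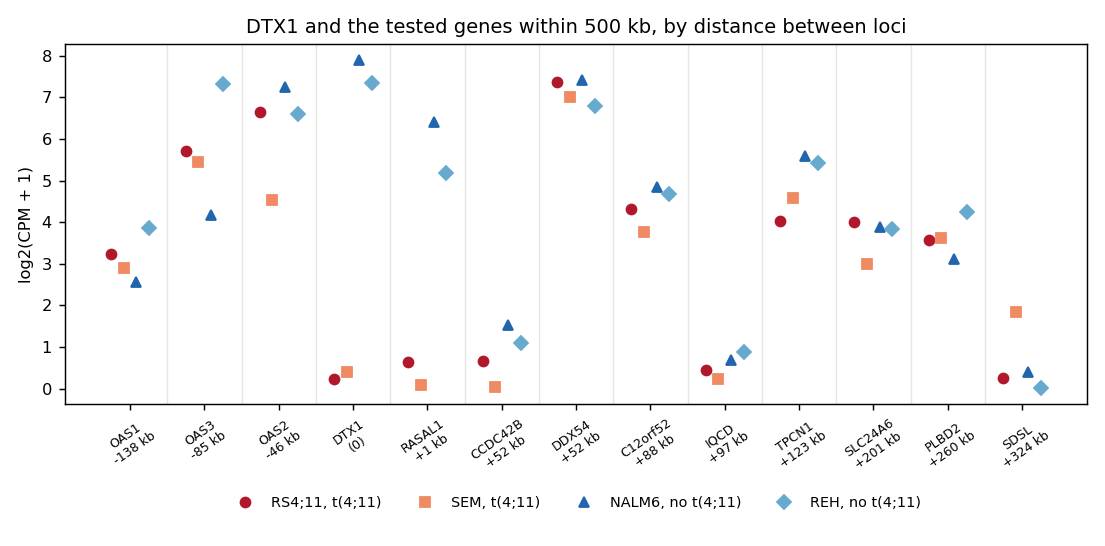
Levels as log2(CPM + 1), with 1 point per cell line, for DTX1 and the 12 tested genes within 500 kb, ordered by the distance in kb between their loci. DTX1 and RASAL1, 0.8 kb away, are under 0.6 CPM in both t(4;11) lines and over 35 CPM in both controls, a gap that no other gene in this window shows.

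The genes whose levels were closest to those of DTX1 over the 4 lines were found by the Euclidean distance in log2(CPM + 1) among all tested genes. They were RASD1, a RAS-like protein induced by glucocorticoids (distance 0.99), ITPR3, a calcium release channel (1.27), CYBB, the catalytic subunit of the phagocyte NADPH oxidase (1.32), PLEKHG4B (1.42) and ALOX5, the lipoxygenase that starts leukotriene synthesis (1.81). RASD1 had 0.328 and 0.208 CPM in the MLL-rearranged pair, against 223 and 82.9 CPM in the control pair. CYBB had 0.116 and 0.119 CPM in the MLL-rearranged pair, against 110.3 and 99.8 CPM in the control pair. This likeness rests on 4 points, and any gene that is near 0 in the t(4;11) lines and abundant in both controls comes close.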

How the data were processed

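TRI Reagent was used to isolate RNA and the TruSeq RNA kit to build libraries, per the labels' protocols. Tools listed in the submitters' processing notes are TopHat2 2.0.4, CASAVA 1.8.2, HTSeq, DESeq and Cuffdiff, with build hg19; their settings and annotation are not stated there. Per the file headers, the authors deposited HTSeq counts per gene and line, a signal (DESeq normalized counts, count divided by 1 size factor per line), a fold change as a ratio of control over t(4;11), and p-values. A second deposited table holds Cuffdiff FPKM per group, log2 fold changes of control over t(4;11), q-values and p-values. The sign of deposited fold changes was turned so that positive is higher with t(4;11).

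The counts were tested with edgeR 4.0.16 in R 4.3.3 (two-sided quasi-likelihood test by glmQLFit and glmQLFTest after filterByExpr and TMM scaling, with Benjamini-Hochberg adjustment over 13844 genes and a threshold of 0.05). The residual degrees of freedom were 2 and the biological coefficient of variation 0.699. The SE is the log2 fold change divided by the square root of F. The test was also run on simulated counts with less spread than these lines show. That run does not show how many true differences it would find here. CPM use column sums. Alternatives were DESeq2 1.42.0, the edgeR exact test, other scalings and filters, and leaving out each line. Promoter sequences are from RefSeq (GRCh38.p14), and shared 50-base stretches were counted in GENCODE transcripts of GRCh38 by symbol; no coordinates were carried between builds. NEURL1 was matched by its older symbol, NEURL. Loci are those of the Cuffdiff table, start counted from 1. Figures used matplotlib 3.10.9.

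The genes and lists were chosen with earlier results of these data known. Named genes were the 10 genes, pathway genes called in a deposited table or not overlapping between groups with an absolute log2 fold change of at least 1, and the 5 genes nearest to DTX1. SPEN, MAML1, RFNG, FURIN, ADAM17, PTCRA, HEY2, TRIB2, the other ligands, the other targets, the gamma-secretase subunits and the neighbours of DTX1 and DTX3 named were chosen after their values were seen.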

Additional observations from a re-analysis of the deposited data

How the results depend on the processing

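Over all genes the number called was 0 with edgeR's quasi-likelihood test (1668 at an unadjusted p under 0.05), 5 without a filter on low counts, 441 with the edgeR exact test and 1593 with DESeq2. Among the 10 genes it was 0, and 1 (DTX1) with the exact test, with DESeq2 and in the deposited DESeq table. Over the pathway lists it was 0. The exact test called 2 pathway genes (DTX1 and MAML2) of 55, beside 3.19% of all tested genes. DESeq2 called 6 (those and ADAM10, LFNG, NUMBL and SPEN), beside 11.3% of all tested genes. The numbers called were 0 under each other edgeR quasi-likelihood alternative and without each line. Genes not overlapping between groups numbered 2 of the 8 tested, against 47.3% of all tested genes in either direction. They numbered 3 with TMM-scaled CPM or the authors' normalized counts, where NOTCH1 was added. The share over all genes was not counted under these 2 scalings.

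The log2 fold change of DTX1 kept its sign under 10 of 10 alternatives, between -10.02 and -9.15, with an adjusted p between 7.58e-72 and 0.485. NOTCH1, NOTCH2 and NOTCH3 also kept theirs. When each line was left out in turn, DTX4 lay between -2.52 (without RS4;11) and 1.12 (without REH), with 0.46 without SEM. JAG1 lay between -5.17 (without NALM6) and 0.90 (without REH), and NRARP between -1.90 (without RS4;11) and 3.66 (without REH), with -0.79 without NALM6. RBPJ lay between -0.08 (without NALM6) and 0.26 (without REH), and at -0.02 with column sums alone, a scaling that moved the median of all genes to -0.12. Where a line was left out, the lone line of its group was assumed to vary like the other group. No paired analysis was possible because each line is 1 patient's leukemia and no t(4;11) line is matched to a control line. The labels give no replicate numbers, and the numbers used only name the lines. Depth limits HES1 and, in the t(4;11) lines, NOTCH3, JAG1 and DTX1, all under 15 counts there. It also limits JAG1 in NALM6 (5 counts). For DTX3, at 0 counts, a limit of depth cannot be told from the choice of exons counted.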
